A study of Rattus norvegicus with 4 samples.

Results

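The 12S and 16S ribosomal RNAs of mitochondria (genes *Mt-rnr1* and *Mt-rnr2*) were described in rat oocytes. They are 2 of the 32883 gene IDs in a table of RNA-seq counts, ENSRNOG00000030478 for 12S and ENSRNOG00000043866 for 16S, and the pair was chosen by its counts, the highest in the table. Its high level is therefore given as a description and was not tested. The samples were 4 libraries of fully-grown GV oocytes from wild-type Sprague Dawley rats. Such oocytes wait in the first meiotic prophase, and their nucleus, the germinal vesicle, is still whole. A library started from 25 oocytes that were collected without superovulation in M2 medium with 0.2 mM IBMX, an inhibitor that keeps oocytes arrested. All libraries belong to 1 condition, so nothing could be compared between treatments, genotypes or stages. The labels name replicates but not animals, so the spread between libraries may be in part technical.

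The 2 RNAs are made from mitochondrial DNA and not from the nuclear genome. In mammals their genes lie next to each other, separated by the gene of a valine tRNA, and both RNAs are cut from a common precursor transcript. 12S is the scaffold of the small subunit of the mitochondrial ribosome, which binds the mRNA, and 16S is the scaffold of the large subunit, which holds the site where peptide bonds form. The proteins of this ribosome are encoded in the nucleus and imported. The ribosome translates only the mRNAs of mitochondrial DNA, which encode subunits of the respiratory chain and of ATP synthase. Oocytes hold many mitochondria and pass them to the embryo, which inherits its mitochondrial DNA from the mother. Mitochondrial rRNAs carry short tails of adenines, shorter than those of most mRNAs. The labels give the molecule as polyA RNA, whereas the protocol describes extraction of total RNA and amplification with an Ovation kit, and how well either rRNA was captured relative to mRNAs is not given in the sources used here.

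Counts over gene IDs summed to 28062431, 19863236, 24113635 and 25125900 in replicates 1 to 4, a range of 1.41-fold. Values are given as CPM, the count of a gene ID scaled to a library total of 1000000, without correction for gene length. The names 12S and 16S come from the Ensembl IDs with which the pair was specified. The count table holds no symbols and the RefSeq table used here lists no Ensembl IDs, so 0 of the 32883 IDs could be paired with a symbol and the names could not be checked in the data. For the same reason markers of the oocyte and of follicle cells were not evaluated, and neither were the other genes of mitochondrial DNA or the nuclear genes of the mitochondrial ribosome.

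16S had 898400, 612485, 849963 and 815072 counts in replicates 1 to 4. On the CPM scale these were 32014, 30835, 35248 and 32440 CPM. The mean was 32634 ± 1870 CPM (SD, n = 4). Raw counts differed by 1.47-fold between the highest and the lowest library, and CPM by 1.14-fold. Replicate 3 had the highest CPM and replicate 2 the lowest, although replicate 1 had the most raw counts.

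12S had 618504, 432844, 558659 and 567401 counts in replicates 1 to 4. These were 22040, 21791, 23168 and 22582 CPM. The mean was 22395 ± 612 CPM (SD, n = 4). Between the highest and the lowest library, raw counts differed by 1.43-fold and CPM by 1.06-fold. Replicate 3 was again the highest and replicate 2 the lowest. The ranges of the RNAs did not overlap, since the lowest CPM of 16S lay above the highest of 12S.

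16S ranked 1 and 12S ranked 2 among all gene IDs in each of the 4 libraries. The ID at rank 3 was ENSRNOG00000039859 in every library, which is just outside the choice of the pair. Its values were 9447, 9271, 9338 and 10235 CPM in replicates 1 to 4. The CPM of 12S was 2.33, 2.35, 2.48 and 2.21 times that of this ID, or 2.34 ± 0.112 times on average (SD, n = 4). For 16S the factor was 3.41 ± 0.257 (SD, n = 4). By mean CPM, the step from rank 2 to rank 3 was 2.34-fold, against 1.46-fold from rank 1 to rank 2 and 1.81-fold from rank 3 to rank 4. The further steps within the 10 highest were 1.03-fold to 1.19-fold from rank 4 to rank 9 and 1.28-fold from rank 9 to rank 10. These are orders of read counts and not of molecules, because a longer RNA yields more reads and gene lengths were not used here.

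**Figure D1:**
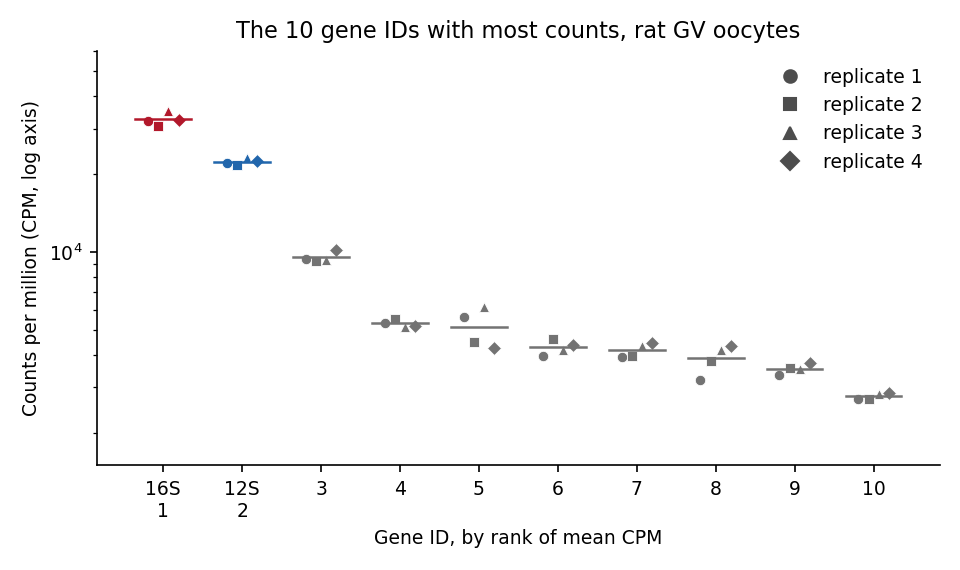
CPM (vertical log axis) of the 10 gene IDs with the highest mean CPM (horizontal axis, by rank) in 4 rat GV oocyte libraries. Symbols are single libraries and lines are means. 16S (red, mean 32634 CPM) and 12S (blue, mean 22395 CPM) stand above the ID at rank 3 in all 4 libraries.

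16S took 3.20%, 3.08%, 3.52% and 3.24% of the counts of replicates 1 to 4, and 12S took 2.18% to 2.32%. Together they took 5.41%, 5.26%, 5.84% and 5.50%, which averaged 5.50% ± 0.246 (SD, n = 4). The exact Clopper-Pearson 95% interval of the combined share was 5.25% to 5.27% in replicate 2, the shallowest library, and 5.83% to 5.85% in replicate 3. Such intervals cover counting error only, since the RNA was amplified and no molecular identifiers are described. About 1 count in 31.2 fell on 16S in replicate 1 and 1 in 45.4 on 12S. The pair held 58.0% to 59.5% of the counts of the 10 highest IDs. To collect as many counts from the next IDs in the order took 14 of them in replicates 1, 2 and 4 and 15 in replicate 3. From the other end of the order, the 27474 to 27797 IDs with the fewest counts together held no more counts than the pair. Only 17487 to 18411 of the 32883 IDs had any count in a library, so many of these lowest IDs had none. Without the pair in the total, the CPM of every other gene ID is 5.55% to 6.20% higher, so the pair changes the scale of the others by nearly the same factor in all libraries.

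**Figure D2:**
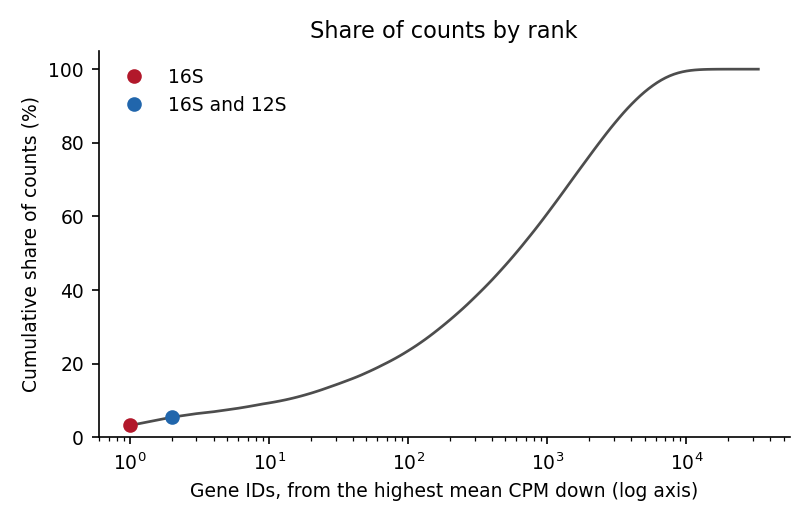
Cumulative share of counts (vertical axis, percent, mean of 4 libraries) over gene IDs taken from the highest mean CPM down (horizontal log axis). 16S alone stands at 3.26% and both rRNAs at 5.50%. The curve reaches 9.37% at 10 IDs, 23.5% at 100 and 60.8% at 1000.

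How the counts were assigned bears on these shares. Among the 20 highest IDs, 5 IDs at ranks 11 to 16 had counts that differed by at most 3.03% from one another in every library. These IDs took 1.21% to 1.60% of the counts of a library. Neither 12S nor 16S was among them. Whether reads were counted for more than 1 of these IDs was not tested. With the group counted once, the combined share of 12S and 16S was 5.56% instead of 5.50%. The group held so few of the counts that this change could not reach the SD between libraries. IDs below the 20 highest were not searched for nearly equal counts, so the change sets no limit for the rest. Copies of mitochondrial DNA in the nuclear genome can share reads with both rRNAs, and the treatment of reads with several matches is not given in the sources used here.

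The ratio of 16S to 12S counts does not depend on how libraries are scaled, because the total of a library cancels. It was 1.45, 1.42, 1.52 and 1.44 in replicates 1 to 4. The mean was 1.46 ± 0.0460 (SD, n = 4), and 16S had more counts than 12S in 4 of 4 libraries. Over the pooled counts, 3175920 for 16S and 2177408 for 12S, the ratio was also 1.46. It is a ratio of counts. 16S is the longer of the RNAs, and the ratio of molecules cannot be read from it without the lengths.

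The ratio differed between libraries by more than counting error. Its 95% interval, from the exact binomial interval of the 16S share of both counts, was 1.448 to 1.457 in replicate 1, 1.410 to 1.421 in replicate 2, 1.516 to 1.527 in replicate 3 and 1.432 to 1.441 in replicate 4. None of the 6 pairs of libraries had overlapping intervals. Replicate 3 stood highest at 1.52, whereas the other 3 libraries lay between 1.42 and 1.45, with a mean of 1.43 ± 0.0188 (SD, n = 3). The coefficient of variation (CV, the SD as a percent of the mean) of the ratio was 3.16%, which is 17.8 times the 0.178% that counting alone gives. The highest and lowest ratios were 1.08-fold apart. The cause of the difference was not tested.

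**Figure D3:**
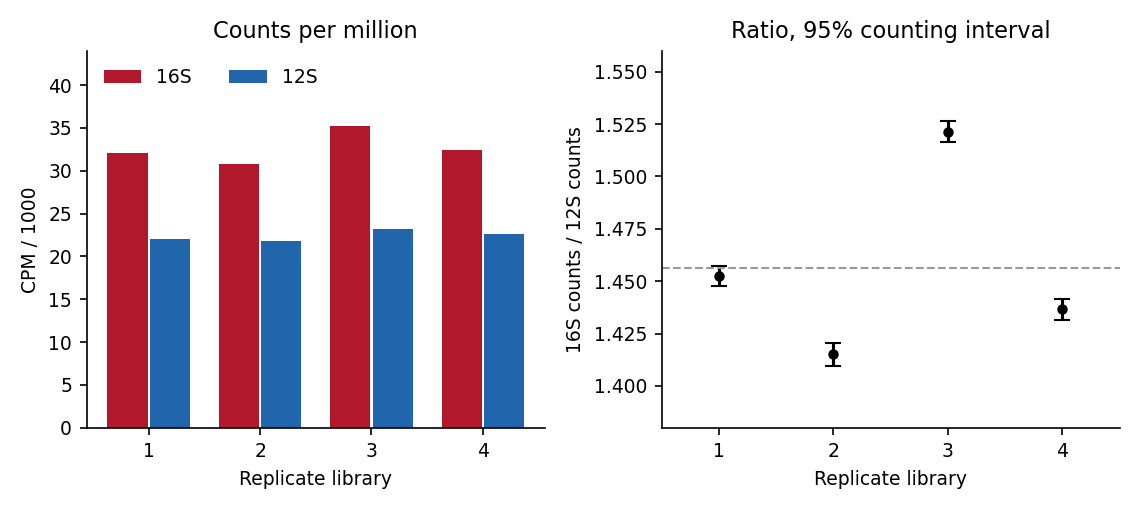
Left, CPM divided by 1000 (vertical axis, from 0) of 16S (red) and 12S (blue) in replicate libraries 1 to 4 (horizontal axis). Right, ratio of 16S to 12S counts in the same libraries, with exact 95% counting intervals as error bars and the mean of 1.46 as a dashed line; its axis does not start at 0. Replicate 3 is highest for both RNAs and for the ratio, at 1.52.

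16S varied more between libraries than 12S. The CV was 5.73% for 16S and 2.73% for 12S (n = 4 libraries each). Counting alone would give 0.113% and 0.137%, so the spread was 50.5 times counting error for 16S and 19.98 times for 12S. The exact Poisson 95% intervals of CPM overlapped in 0 of 6 pairs of libraries for 16S and in 0 of 6 for 12S. These intervals take each count as independent and do not cover the number of molecules captured before amplification. Replicate 3 carried much of the spread of 16S: without it the CV was 2.62% for 16S and 1.83% for 12S. No test of the difference between the CVs was made.

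Other abundant gene IDs give the scale for these CVs. Over the 2204 other IDs with a mean of at least 100 CPM, the median CV was 5.72%, with quartiles of 3.99% and 7.90%. Of these IDs, 50.2% had a smaller CV than 16S and 9.03% had a smaller CV than 12S. Over all 4 libraries, 16S thus lay at the middle of these IDs and 12S toward the steady end. A CV from 4 values is imprecise, and the place of 16S leans on replicate 3. Without that library the CV was 2.62% for 16S and 1.83% for 12S, and the other IDs were not placed again. The shares depend on the limit of 100 CPM and were lower when IDs with fewer counts were included. Among the 100 other IDs with a mean of at least 1000 CPM they were 59% and 12%.

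**Figure D4:**
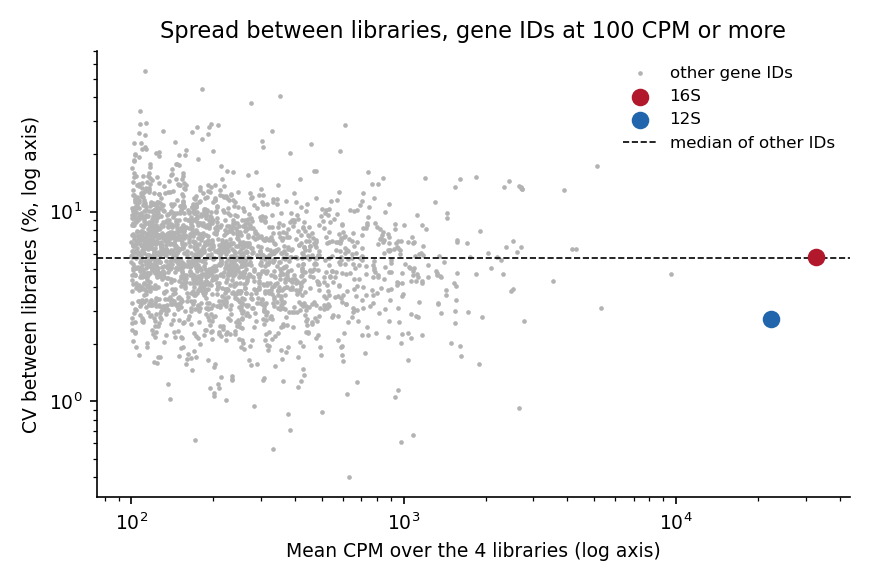
CV of CPM between the 4 libraries (vertical log axis, percent) against mean CPM (horizontal log axis) for 16S (red), 12S (blue) and 2204 other gene IDs with a mean of at least 100 CPM (grey). The dashed line is the median of the other IDs, 5.72%. 16S lies on this line at 5.73% and 12S below it at 2.73%.

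The ratio of 16S to 12S varied less between libraries than most ratios among the 10 highest IDs. Among the 45 pairs that these IDs form, the CV of the ratio was smaller than that of 16S to 12S in 2. The smallest, 1.43%, was that of 12S to ENSRNOG00000010748, the ID at rank 10, so 12S kept a steadier ratio to this ID than to 16S. The median over the pairs was 7.49% and the range 1.43% to 24.9%. The largest was that of the IDs at ranks 5 and 8, whose own CVs were 17.4% and 12.97%. All pairs with either of these IDs lay above the median, so the median and the range lean on them. The pairs share IDs and libraries, so they are not independent, and no test was made of this order.

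Replicate 3 was the library with the highest CPM of both RNAs. There 16S stood 10.97% above the mean of the other 3 libraries and 12S 4.65% above. Among the 2204 other IDs with at least 100 CPM, the median ID stood at 0.991 times the mean of the other libraries, and 14.9% were highest in replicate 3. An ID with a larger excess than 16S was found 90 times among them, and one with a larger excess than 12S was found 382 times. The library was picked as the one where 16S was highest, and 12S was highest there too. Their excess over the median ID in replicate 3 follows in part from this choice and is given as a description. A larger excess than that of 16S, or than that of 12S, was found in a minority of the 2204 other IDs. On total counts, both RNAs had the order replicate 2, 1, 4 and 3 from low to high, an order that 2.63% of the other IDs had too. In all, 20.9% of the other IDs were lowest in replicate 2.

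The order of the other libraries depended on the scaling. With TMM-scaled library sizes, which set libraries to a common level of most genes, 16S was 32119, 31252, 35587 and 31599 CPM in replicates 1 to 4. 12S was then 22112, 22086, 23391 and 21997 CPM. Replicate 3 was the highest for both RNAs under TMM, under DESeq2 size factors and on totals without 12S and 16S. Replicate 2 was the lowest on total counts, whereas under DESeq2 size factors replicate 4 was the lowest for both. Among the 3 libraries other than replicate 3, the direction of some differences in CPM thus changed with the scaling. Under TMM, the excess in replicate 3 was 12.4% for 16S and 6.01% for 12S, and the median of the other IDs was at 1.00 times the mean of the other libraries.

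**Figure D5:**
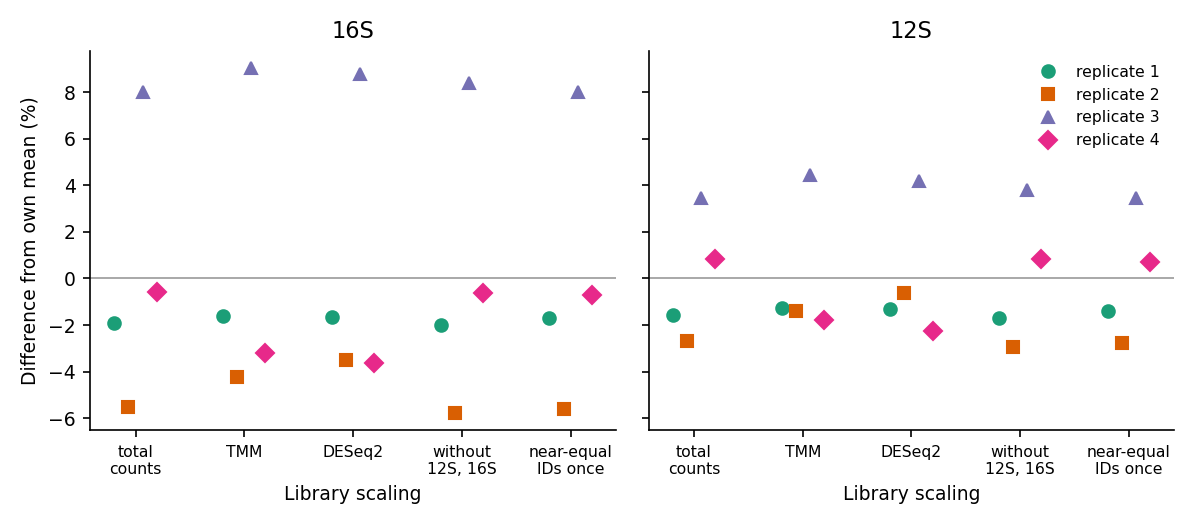
Difference of each library from the mean of the same RNA (vertical axis, percent) for 16S (left) and 12S (right) under 5 library scalings (horizontal axis). Replicate 3 (triangles) is the highest in each, 8.01% above the mean for 16S and 3.45% for 12S on total counts, whereas the order of the other 3 libraries changes between scalings.

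The gene IDs with the most similar pattern over the 4 libraries were found by the root mean square difference of log2 CPM after centring each ID on its own mean. It was computed for IDs with a mean of at least 100 CPM. For 16S the closest was ENSRNOG00000001055, at rank 187 with a mean of 729 CPM and a difference of 0.0073 on the log2 scale. Its values were 717, 693, 782 and 723 CPM in replicates 1 to 4, so it was also highest in replicate 3 and lowest in replicate 2. For 12S the closest was ENSRNOG00000051838, at rank 1107 with a mean of 199 CPM and a difference of 0.0033. Its values were 195, 194, 206 and 200 CPM. The difference between the log2 patterns of 12S and 16S was 0.0391. By this measure 12S was in place 52 of 2205 IDs for 16S, and 16S in place 182 of 2205 for 12S. The median of the other IDs was at 0.109 from 16S and at 0.0847 from 12S. The pattern rests on 4 libraries of 1 condition, so these IDs are named for their values only.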

How the data were processed

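RNA-seq libraries of wild-type rat GV oocytes were used, 4 in 1 group, mapped to replicates 1 to 4 by their labels. The authors deposited raw counts, not normalized, for 32883 gene IDs of Ensembl release 93 on rn6 (Rnor_6.0), and 0 columns were left over. Per the labels, reads were paired and 250 bases long. The processing notes of the submitters list bedtools 2.26.0 and STAR 2.5.3a. How reads were counted, with which strand setting and with which treatment of multimapping reads, is not given in the sources used here. Depth was 19863236 to 28062431 counts, and exact 95% intervals cover counting error only.

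CPM, shares, ranks and CVs were computed with Python 3.11.15 (scipy 1.17.1, pandas 2.3.3, numpy 2.4.6) and drawn with matplotlib 3.10.9. TMM came from edgeR 4.0.16 and size factors from DESeq2 1.42.0 in R 4.3.3. DESeq2 size factors were rescaled to the mean library total. Of the measures used, only the CV and the difference of log2 patterns were run on simulated counts. The check of the latter used an exact multiple of 1 ID, which must come out nearest, so it checks the computation only. With 1 condition and RNAs chosen for their counts, no test was run between groups or genes. Dixon's criterion, used only to find single libraries for a closer look, was passed by 0 of 7 quantities, which with 4 values shows little. The RNAs and gene lists were chosen with earlier results of these data known. Named IDs were to be both RNAs, the 10 highest IDs and the 5 closest patterns of each RNA. Since the IDs could not be paired with symbols, few are printed, and the 12 gene lists were not evaluated.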

Additional observations from a re-analysis of the deposited data

How the results depend on the processing

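Over 11 results and 63 alternatives, 56 values stayed within a set limit and 7 moved. The limit was the SD between libraries for mean CPM, combined share, fold and ratio. For CVs it was an approximate sampling error of the CV, for ranks equality, and for shares of gene IDs 1.5 times the value. A mean over the libraries cannot move by as much as the SD when 1 replicate is left out. Those alternatives could not fail, so the number of values that stayed shows little. The 11 results hold no differences between single libraries, some of which changed direction with the scaling, as described for replicates 1, 2 and 4. On totals without 12S and 16S, the mean was 34539 CPM for 16S and 23701 CPM for 12S, as the smaller total requires. The CV of 16S was 2.62% to 6.99% with 1 replicate left out. The share of other gene IDs with a smaller CV than 16S was 29.3% at a minimum of 10 CPM and 10.8% without a minimum. For 12S these shares were 4.65% and 1.69%. Ranks 1 and 2 could not change in the alternatives run for them, because they held in every single library. The ratio of 16S to 12S counts was 1.43 to 1.47 with 1 replicate left out. Counting the group of nearly equal gene IDs once was added after seeing the data. Values per kilobase and the share of all mitochondrially encoded counts were not run, since they need gene lengths or names. No paired analysis was possible because all libraries belong to 1 group. The error of counting reads was below the spread between libraries for both RNAs, and the number of molecules captured is not known.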

Other observations

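Among the 10 highest gene IDs, those at ranks 5 to 8 had a larger CV between libraries than 12S and 16S. It was 6.31% at rank 6 and 6.35% at rank 7, and larger still at ranks 5 and 8. The IDs at ranks 3, 4, 9 and 10 had a smaller CV than 16S, of 4.67%, 3.11%, 4.32% and 2.66%. At rank 10 it was also below the 2.73% of 12S. ENSRNOG00000047746, at rank 5, had 5608, 4488, 6116 and 4252 CPM in replicates 1 to 4, a CV of 17.4%. It was highest in replicate 3, like 12S and 16S. ENSRNOG00000034234, at rank 8, had 3214, 3809, 4195 and 4346 CPM, a CV of 12.97%, and was highest in replicate 4.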
